A study of Mus musculus with 14 samples.

Results

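The genes described here are 10 of 21887 protein-coding genes: the cathepsin genes Ctsa, Ctsb, Ctsc, Ctsd, Ctsh, Ctsl, Ctss and Ctsz, Lgmn, which encodes the lysosomal endopeptidase legumain, and Cst3, which encodes cystatin C. They were chosen by name, and each was read within 1 kb of its gene ends and over its span plus 10 kb. The assay was CUT&Tag for H3K27ac, the acetylation of histone H3 found at active promoters and enhancers; a transposase tethered to the antibody inserts sequencing adapters into the nearby DNA. All libraries came from CD11b+ cells sorted as macrophages from brain tumours of NSG mice, an immunodeficient strain that lacks mature lymphocytes, so the tumour, a T387 human glioblastoma xenograft, grew without T cells or B cells. Treated mice received pracinostat, an inhibitor of histone deacetylases, by mouth at 30 mg/kg over 3 weeks, with 4 doses in each, starting on day 7 of tumour growth, although the text on its preparation gives 3 mg/kg. Control mice received the same solvent mixture, containing DMSO, without drug. Of the 7 H3K27ac libraries 3 were from DMSO and 4 from pracinostat mice, and 7 further libraries, divided likewise, were made with non-specific IgG. The labels call them biological replicates without saying which animal, or how many, gave each, and the age of the mice is not given in the sources used here. P-values therefore measure the spread between these samples.

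Cathepsins are the main proteases of the lysosome, where they cut proteins that a macrophage has taken up or is recycling. Most are cysteine proteases related to papain, made as inactive precursors and cleaved to the active form in acid compartments. Ctsd is an aspartic protease and Ctsa a serine carboxypeptidase. Cystatin C is a secreted inhibitor that blocks cysteine cathepsins outside the cell. In antigen-presenting cells the same enzymes trim the invariant chain and prepare peptides for MHC class II. Many lysosomal genes carry E-box motifs of the TFEB and MITF family of transcription factors at their promoters.

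Each H3K27ac library gave a list of 53503 to 291042 summits, the shortest being DMSO replicate 2, in which 34928 summits shared the lowest score. IgG libraries gave 2194 to 18517 summits. The sources used here give no read numbers. Depth is known only through these counts. As a check of the sorted cell type, Spi1, Csf1r and Itgam, 3 macrophage genes, had mean percentiles of 91.9 ± 3.43, 66.3 ± 9.56 and 39.8 ± 8.96 in the 3 DMSO libraries (mean ± SD) and 90.9 ± 14.5, 73.4 ± 10.0 and 52.8 ± 10.1 in the 4 pracinostat libraries. A percentile here is the place of a gene's highest summit among the 13494 genes ranked in the same library, where 100 is the highest, and genes without a summit share the lowest place. List means of markers of other cells lay below those of the macrophage list, although single genes such as S100a8, Mbp and Kdr, named after their values were seen, had higher means than Itgam. List means spanned 26.8 to 38.1 in DMSO and 17.4 to 25.2 in pracinostat libraries for neutrophil markers (12 of 15 ranked, with no summit for Ly6g and Retnlg in any library). They spanned 25.3 to 28.4 and 20.6 to 29.7 for lymphocyte markers (9 of 12 ranked, none for Cd8a), 24.6 to 29.6 and 19.99 to 26.2 for neuron, astrocyte and oligodendrocyte markers (5 of 14 ranked, none for Snap25, Syt1, Gad1, Mag and Mobp), and 14.3 to 46.2 and 28.8 to 35.3 for endothelial markers (3 of 7 ranked). For macrophage markers (14 of 14 ranked) they spanned 61.5 to 69.4 in DMSO and 68.8 to 82.8 in pracinostat libraries. The neutrophil list means were thus lower in every pracinostat library, and the macrophage list means overlapped between groups only at 68.8 to 69.4. At an unadjusted limma p under 0.05, 3 neutrophil genes (Cxcr2, Camp, Padi4) were lower and 1 macrophage gene (Fcgr1) higher. Over all ranked genes 3.42% were lower and 2.74% higher at that p. Camp stood at 62.6 in DMSO replicate 2, and its difference was −6.00 percentile points without that library in place of −21.5. Those of Cxcr2 and Padi4 were −24.5 and −17.2 without it, in place of −32.9 and −23.6. The difference of Fcgr1 was 16.3 without pracinostat replicate 1 in place of 26.3. The part of these lists in the values below was not tested.

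All 10 genes carried H3K27ac at a gene end in all 7 libraries. Over all genes, 38.8 to 61.6% had a summit in these windows, depending on the library. With IgG, 1 of the 10 genes had such a summit, Cst3, in 1 of 7 libraries and at that library's lowest score, against 0.530 to 2.70% of all genes. Over the gene span plus 10 kb the 10 genes held 286, 92 and 292 summits in DMSO replicates 1 to 3 and 333, 319, 332 and 344 in pracinostat replicates 1 to 4. The IgG libraries held 0 to 2 there.

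The promoters shown next are those of the genes with the highest (Lgmn, Ctsd) and the lowest (Ctss) mean percentile and of the gene with the smallest p for treatment (Ctsa). The inner start site of Ctsa is added, chosen after its motifs were seen. They are RefSeq sequences of GRCm38.p6, 5′ to 3′ on the gene's own strand, from 250 bases before the start site to 50 bases from it on. Capitals mark any of 6 motifs on either strand: CACGTG, the E-box core of the TFEB and MITF family, the longer TCACGTGA that contains it, GAGGAA, a core of PU.1 sites, TGANTCA, the AP-1 motif, GGGCGG, the GC box, and TATAAA.
Lgmn (chr12:102439679-102439978, minus strand): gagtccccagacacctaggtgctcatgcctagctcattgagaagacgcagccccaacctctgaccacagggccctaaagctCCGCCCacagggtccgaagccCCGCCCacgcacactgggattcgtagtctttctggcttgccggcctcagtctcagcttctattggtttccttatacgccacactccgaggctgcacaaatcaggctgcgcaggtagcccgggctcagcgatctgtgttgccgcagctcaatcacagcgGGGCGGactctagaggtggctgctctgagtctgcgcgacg
Ctsd (chr7:142387778-142388077, minus strand): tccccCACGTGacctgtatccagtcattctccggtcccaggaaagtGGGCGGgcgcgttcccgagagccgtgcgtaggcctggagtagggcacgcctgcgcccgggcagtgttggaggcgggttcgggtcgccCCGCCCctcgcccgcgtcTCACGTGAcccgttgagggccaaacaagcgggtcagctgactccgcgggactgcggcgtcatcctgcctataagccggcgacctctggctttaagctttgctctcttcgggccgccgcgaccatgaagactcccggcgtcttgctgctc
Ctss (chr3:95526536-95526835, plus strand): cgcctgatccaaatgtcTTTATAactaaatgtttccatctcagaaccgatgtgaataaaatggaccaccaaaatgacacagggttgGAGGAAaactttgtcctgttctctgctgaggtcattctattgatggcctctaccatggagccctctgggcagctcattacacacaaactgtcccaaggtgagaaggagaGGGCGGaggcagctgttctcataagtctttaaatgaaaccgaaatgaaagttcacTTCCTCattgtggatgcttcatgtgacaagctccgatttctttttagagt
Ctsa, outer start site (chr2:164832622-164832921, plus strand): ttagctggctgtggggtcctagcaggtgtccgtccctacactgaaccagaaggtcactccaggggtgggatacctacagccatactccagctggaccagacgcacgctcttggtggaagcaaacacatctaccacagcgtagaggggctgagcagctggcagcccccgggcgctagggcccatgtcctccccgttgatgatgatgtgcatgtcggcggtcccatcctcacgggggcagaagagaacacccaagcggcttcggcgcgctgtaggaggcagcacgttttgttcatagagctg
Ctsa, inner start site (chr2:164833523-164833822, plus strand): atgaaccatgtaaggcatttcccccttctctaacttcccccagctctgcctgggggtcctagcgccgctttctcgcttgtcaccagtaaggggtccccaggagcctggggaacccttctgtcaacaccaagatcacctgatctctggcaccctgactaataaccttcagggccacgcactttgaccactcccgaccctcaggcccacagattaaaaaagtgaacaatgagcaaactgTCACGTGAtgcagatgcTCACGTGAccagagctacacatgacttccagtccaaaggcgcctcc

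A summit lay inside the printed window of Lgmn in 7 libraries, of Ctsd in 6, of Ctss in 5, of Ctsa at the outer start site in 2 and at the inner one in 6. The E-box core CACGTG was in 4 of the 10 promoters that the table holds for 8 members (the inner promoters of Ctsa and Lgmn and those of Ctsd and Ctsl), against 7.15% of all 32851 promoters. Among the 8 outer promoters it was in 2. A summit lay inside the Ctsl promoter in 0 libraries and inside the inner Lgmn promoter in 1. The longer TCACGTGA was in 2 of the 10, the inner Ctsa promoter and that of Ctsd, against 0.974% of all. In the inner Ctsa promoter it occurs at 2 places, with first bases at −13 and 4 where the start site is 0. The PU.1 core GAGGAA was in 3 of the 10 (Ctsc, Ctss and Cst3), against 28.3% of all, and GGGCGG in 6, against 35.7%. TATAAA was in 2 (Ctss and the inner Lgmn promoter), against 13.6%, and TGANTCA in 0, against 7.81%. A match is a run of letters and not a measured binding site. The shares over all promoters were not matched for base composition. All promoters had medians of 52.7% GC and 7 CG dinucleotides, and the 10 had from 44 to 67.3% and from 5 to 33. Ctsb and Ctsh are named only.

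**Figure D1:**
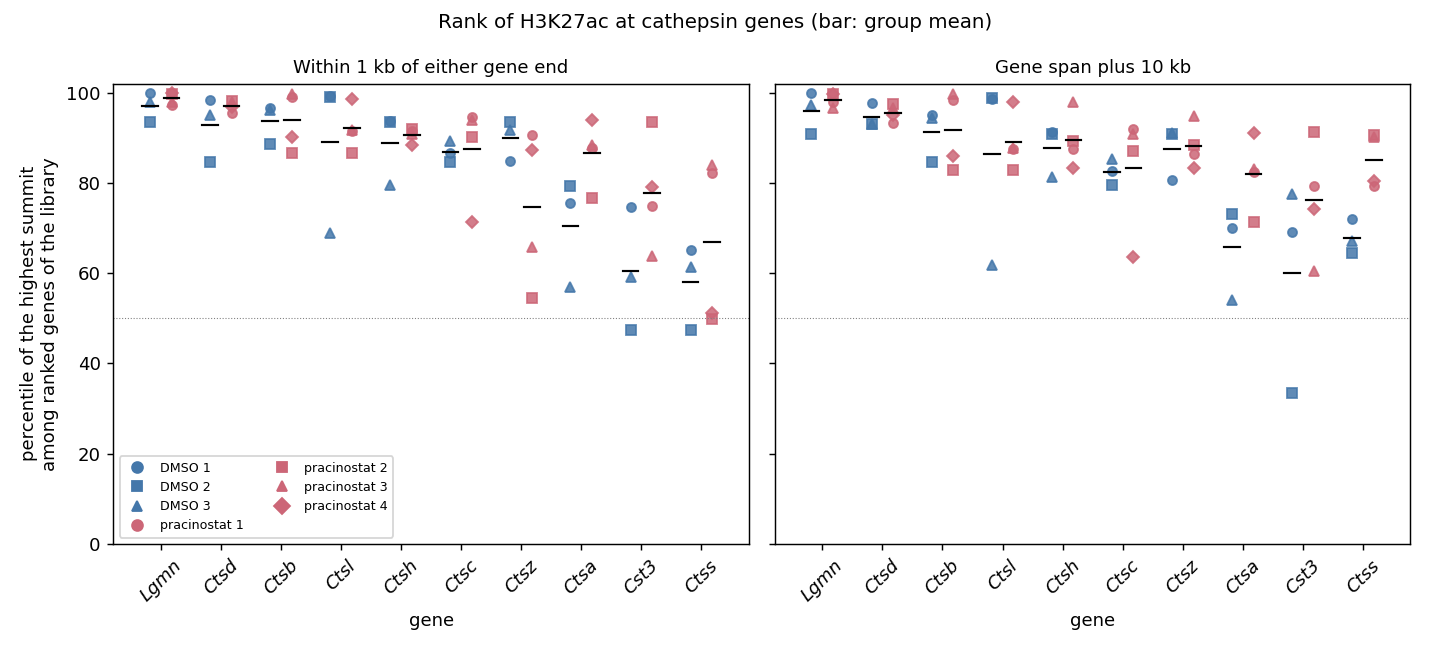
Percentile of the highest H3K27ac summit of each gene (y axis) in each of 7 libraries, within 1 kb of the gene ends (left) and over the gene span plus 10 kb (right); points are libraries, bars the group means. Lgmn and Ctsd sit highest in both panels, and the 4 pracinostat points lie above the 3 DMSO points only for Ctss over the span.

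The members' median lay high in every library, and single members, Ctss above all, came near the middle in some. Over the 7 libraries the mean percentile of the members at gene ends ran from 63.0 (Ctss) to 98.1 (Lgmn), with a median of 88.6, and 8 of the 10 were above 75. Within single libraries the median lay between 84.5 (DMSO replicate 3) and 91.4 (pracinostat replicate 1). The order of levels had Lgmn, Ctsd and Ctsb on top, then Ctsl, Ctsh and Ctsc, then Ctsz and Ctsa, with Cst3 and Ctss lowest. Each pair of neighbours in this order differed by less than the larger of their SDs over the 7 libraries.

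At gene ends 0 of 10 members passed the limma test between treatments. The same was true of all genes: 0% of the 13494 ranked genes were called in either direction at an adjusted p under 0.05. At an unadjusted p under 0.05 there were 0 members, beside 2.74% of all genes higher and 3.42% lower with pracinostat. The treatment groups overlapped for all 10 members, whereas 2.88% of all genes had every pracinostat library above every DMSO library and 3.79% had every one below. In mean percentile 9 of the 10 members were higher with pracinostat, beside 48.9% of all genes, and without DMSO replicate 2 it was 6 of 10. In normal scores it was 8 of 10, Ctsl being the difference. The median difference of the members was 2.39 percentile points, and that of all genes −0.296.

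Legumain cuts after asparagine and helps turn several cathepsin precursors into their mature forms. Lgmn (chromosome 12, 102394082 to 102439728, mm10) had percentiles of 99.9, 93.6 and 98.0 in DMSO replicates 1 to 3 and 97.4, 99.8, 97.9 and 99.9 in pracinostat replicates 1 to 4. All 7 libraries placed it among the most highly marked genes, and the groups overlapped. The difference was 0.243 ± 0.482 normal-score units (SE, limma adjusted p = 0.963), where 1 unit is 1 SD of all ranked genes.

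Cathepsin D, the aspartic protease, is among the most abundant enzymes of the lysosome. Ctsd (chromosome 7, 142375910 to 142387827) stood at 98.5, 84.6 and 95.1 in DMSO and at 95.5, 98.3, 97.9 and 96.8 in pracinostat libraries. The low value is that of the short list of DMSO replicate 2. The difference was 0.311 ± 0.438 (adjusted p = 0.949).

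Cathepsins B, L and S are endopeptidases of the cysteine group. Ctsb (chromosome 14, 63122462 to 63145923) had 96.6, 88.7 and 96.1 with DMSO and 99.0, 86.7, 99.8 and 90.3 with pracinostat, with means of 93.8 ± 4.47 and 93.9 ± 6.49 and a difference of 0.300 ± 0.458 (adjusted p = 0.956). Ctsl (chromosome 13, 64361890 to 64370772) had 99.2, 99.1 and 68.8 with DMSO and 91.4, 86.7, 91.7 and 98.6 with pracinostat. DMSO replicate 3 stood apart from the other DMSO libraries at Ctsl, so the mean percentile was higher with pracinostat (92.1 ± 4.93 against 89.0 ± 17.5) while the difference in normal scores was negative (−0.238 ± 0.461, adjusted p = 0.961). Without DMSO replicate 3 it was −0.870, still short of the threshold (adjusted p = 0.711). Ctss (chromosome 3, 95526786 to 95556405), whose product trims the invariant chain in antigen-presenting cells, was the lowest member at its ends, with 65.2, 47.3 and 61.3 in DMSO and 82.1, 49.8, 84.1 and 51.2 in pracinostat libraries. In the pracinostat group 2 libraries were thus high and the other two near the DMSO values (0.282 ± 0.377, adjusted p = 0.948).

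Cathepsin H is mainly an aminopeptidase and cathepsin C a dipeptidyl peptidase that activates serine proteases of granules. Ctsh (chromosome 9, 90054267 to 90076095) had 93.7, 93.6 and 79.6 with DMSO and 91.4, 91.9, 90.9 and 88.4 with pracinostat (0.0329 ± 0.411, adjusted p = 0.998). Here DMSO replicate 3 was the low library. Ctsc (chromosome 7, 88278024 to 88315861) had 86.6, 84.6 and 89.4, against 94.5, 90.2, 94.0 and 71.4, where pracinostat replicate 4 was the lowest of the 7 libraries and the other 3 pracinostat libraries were the highest (0.129 ± 0.410, adjusted p = 0.976). Cathepsin Z is a carboxypeptidase, and its gene was the only member with a lower mean percentile with pracinostat. Ctsz (chromosome 2, 174427494 to 174439039) had 84.8, 93.6 and 91.8 with DMSO and 90.6, 54.5, 65.8 and 87.4 with pracinostat, a difference of −0.566 ± 0.407 (adjusted p = 0.877). Pracinostat replicates 2 and 3 carried the lower mean, and with windows of 2.5 kb the difference was 0.103. In these libraries the highest Ctsz summit lay 1226 and 1118 bp inside the gene, outside the 1 kb window. That was also so in DMSO replicate 3 (2736 bp) and pracinostat replicate 4 (2701 bp). Over the span plus 10 kb the difference was 0.0411.

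Ctsa, whose product trims peptides and also shields the lysosomal sialidase and beta-galactosidase from breakdown, had the smallest p of the members at gene ends. Ctsa (chromosome 2, 164832872 to 164841032) had 75.5, 79.2 and 56.9 in DMSO and 87.7, 76.7, 88.4 and 93.9 in pracinostat libraries. Of the 4 pracinostat libraries, 3 were above every DMSO library. The difference was 0.599 ± 0.395 (limma adjusted p = 0.863) and it was positive in all 18 alternatives, with 0.214 as the smallest, for windows of 500 bp. An end of Neurl2 lies 724 bp away in the same window, and the 2 genes cannot be told apart by it. By Euclidean distance of normal scores over the 7 libraries the 3 genes most like Ctsa were Neurl2 (0.0587), then Pdgfb (0.460) and Hpn (0.487).

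Cst3, the inhibitor, stood lower than most of the proteases. Its percentiles (chromosome 2, 148871722 to 148875512) were 74.6, 47.3 and 59.2 in DMSO and 74.9, 93.6, 63.7 and 79.1 in pracinostat libraries. In DMSO replicate 2, Cst3 and Ctss shared the place of summits at that library's lowest score. The means were 60.4 ± 13.7 (n = 3) and 77.8 ± 12.3 (n = 4), a difference of 17.4 percentile points or 0.562 ± 0.388 normal-score units (adjusted p = 0.870).

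**Figure D2:**
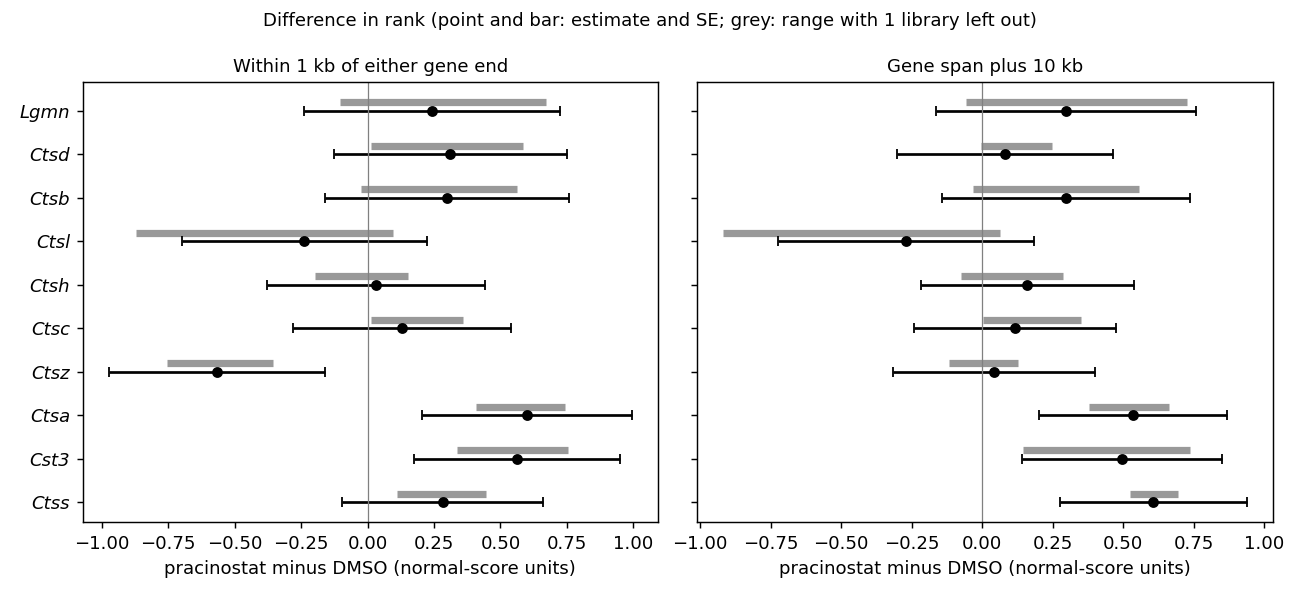
Difference between pracinostat and DMSO in normal-score units (x axis) for each gene, at gene ends (left) and over the span plus 10 kb (right), with points for the estimate, thin bars for the SE and grey bars for the range when 1 of 7 libraries is left out. Ctsl has the widest grey bar, from −0.870 to 0.0970 at gene ends, and 0 of the 10 genes passed.

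Over the gene span plus 10 kb, Ctss was the one member whose treatment groups did not overlap. Its percentiles there were 71.9, 64.5 and 67.1 in DMSO and 79.2, 90.6, 90.2 and 80.5 in pracinostat libraries. All 4 treated libraries lay above the 3 controls. The difference of 0.606 ± 0.330 normal-score units had a limma adjusted p of 0.851 and stayed between 0.524 and 0.692 when 1 library was left out. That is 1 of 10 members, where 3.03% of the 18082 genes ranked in this window were separated upward and 3.36% downward. In this window 0 members passed, as did 0% of all genes in either direction, and 0 members had an unadjusted p under 0.05, beside 2.84% of all genes higher and 3.15% lower. Mean percentiles were higher with pracinostat for 10 of 10 members (49.3% of all genes), for 7 of 10 without DMSO replicate 2 and for 6 of 10 without pracinostat replicate 3.

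The highest summit of Ctss was within 1 kb of its 5′ end in 0 of 7 libraries. In DMSO libraries it lay 3211, 4869 and 4629 bp upstream of the 5′ end. In pracinostat replicates 2 and 4 it lay 5399 and 5392 bp upstream, and in replicates 1 and 3 it lay 3292 and 3219 bp inside the gene. The inner site, a region on chromosome 3 from 95529560 to 95530377, had percentiles among all ranked regions of 90.2, 60.9 and 85.7 with DMSO and 92.8, 91.7, 97.2 and 93.1 with pracinostat (0.680 ± 0.429, adjusted p = 0.893). It was chosen after its values were seen, and its 60.9 in DMSO replicate 2 is the place of summits at that library's lowest score. The upstream region from 95520547 to 95522498 had 84.8, 86.6 and 86.9 against 83.0, 97.6, 92.3 and 93.7, with overlap. A nearer one, from 95523203 to 95524166, lies over the long non-coding gene Gm40096. With the span read without its flank the difference of Ctss was 0.756 (adjusted p = 0.847). In every pracinostat library that reading takes the summit of the inner site, so it is not a separate result.

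Most other members had their highest summit near the 5′ end. In all 7 libraries it lay within 1 kb of the 5′ end for Ctsc and Ctsl, and of the lower-coordinate end for Ctsb, whose strand is not in the table. At Ctsl the 7 positions fell within 68 bp of each other, 316 to 384 bp inside the annotated end. At Ctsd 6 libraries had it within 1 kb of the 5′ end, 5 of them 83 to 109 bp upstream and thus inside the printed promoter, while DMSO replicate 2 had it 5591 bp upstream. At Ctsz it was within 1 kb in 3 libraries and 1118 to 2736 bp inside the gene in the others. Cst3 had its highest summit 19 and 23 bp upstream in DMSO replicate 1 and pracinostat replicate 2, about 2.2 kb upstream in DMSO replicate 3 and pracinostat replicate 1, and inside the gene in the rest. The promoter summit fell in the top 3.19% of the list in DMSO replicate 1 and in the top 0.490% in pracinostat replicate 2.

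**Figure D3:**
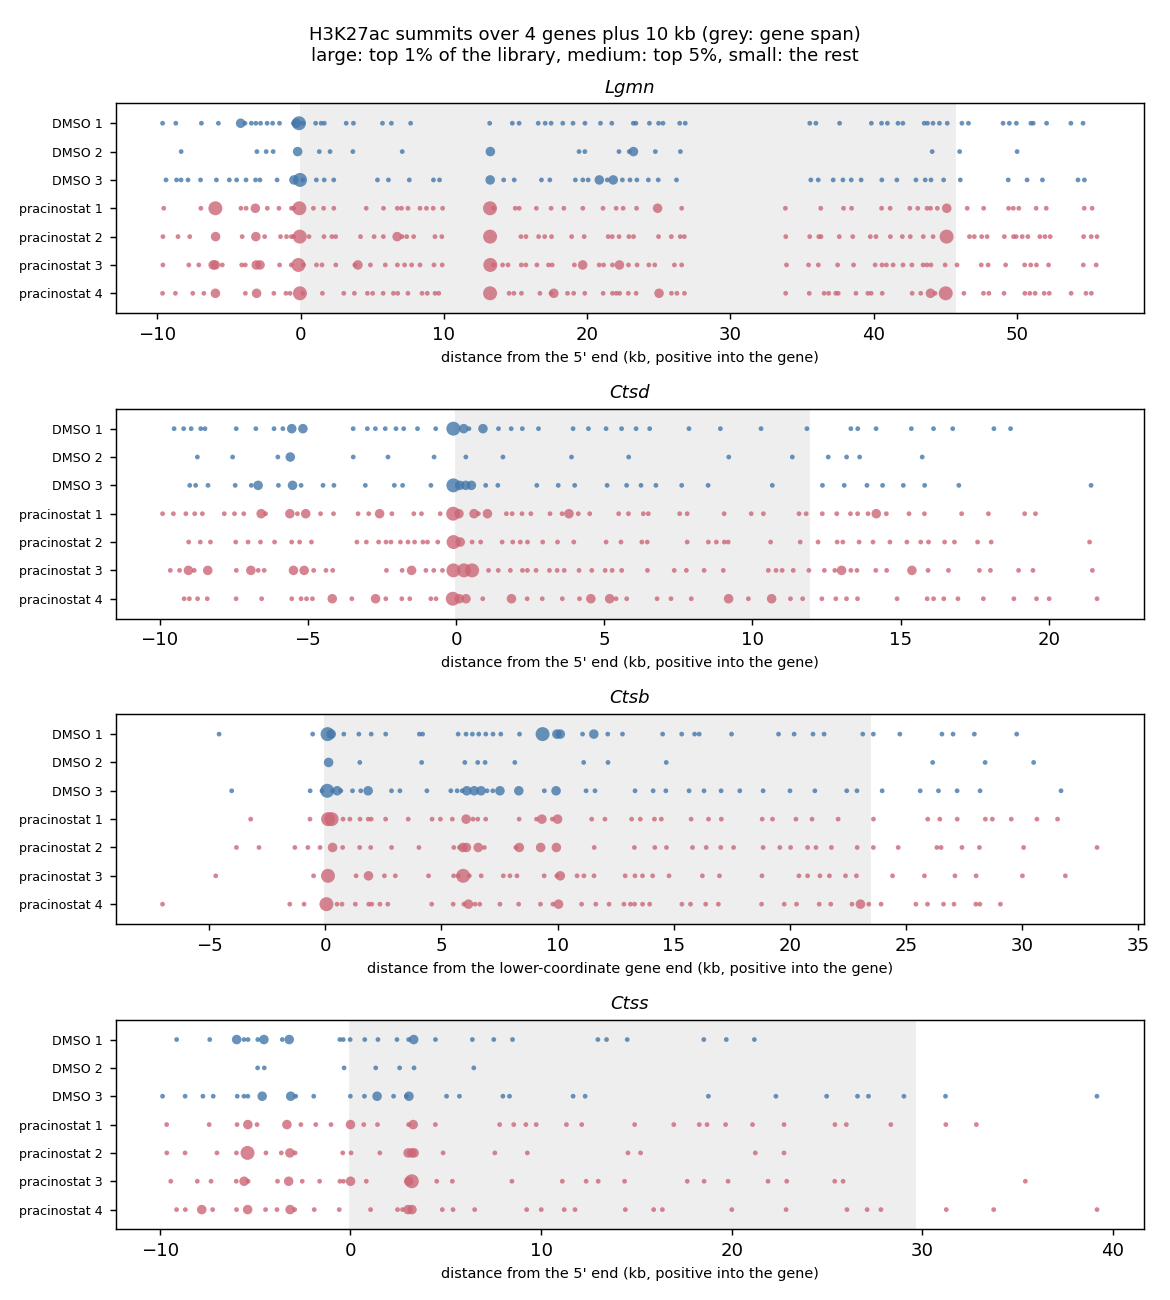
Positions of H3K27ac summits in each of 7 libraries (rows) over Lgmn, Ctsd, Ctsb and Ctss, as distance in kb from the 5′ end (lower-coordinate end for Ctsb); grey marks the gene span and larger points rank higher in their library. Large points mark the top 1% of a library: Lgmn has them about 13.2 kb inside the gene in the 4 pracinostat libraries, where the DMSO points lie in the top 2.51 to 9.36%, and the 5′ end of Ctss has none, its highest points there lying in the top 1.93 and 2.32% in pracinostat replicates 3 and 1.

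The members were also densely marked. Ctsd had 1.41, 0.533 and 1.22 summits per kb over its span plus 10 kb in DMSO replicates 1 to 3 and 1.88, 1.79, 1.94 and 1.66 in pracinostat replicates 1 to 4. The median over all genes was 0.0291 to 0.197 summits per kb. By this density Ctsd lay between the percentiles 99.7 and 100 of all genes, library by library. Ctsb stood between 97.0 and 99.2, Lgmn between 97.0 and 99.4, and Ctsz between 96.0 and 97.8. Ctsl and Ctsc were the sparsest, from 55.8 to 88.0 and from 63.4 to 91.5.

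Raw numbers depend on the length of the lists and were not tested. Ctsd held 45, 17 and 39 summits with DMSO and 60, 57, 62 and 53 with pracinostat, groups that do not overlap. Per 100000 summits of the library the means were 22.3 ± 9.20 (n = 3) and 23.4 ± 3.40 (n = 4), which differ by less than their spread. Ctsc was the member with the largest relative gap on that scale, at 7.18 ± 1.39 and 11.5 ± 2.44. It was named after its values were seen, and the gaps of all genes are not given here. The flank of Ctsd reaches Ifitm10, and that of Lgmn reaches Rin3, and their summits are not separated here. Pltp overlaps the 3′ end of Ctsa, Fdft1 an end of Ctsb, and Nelfcd ends 11 bp from the 3′ end of Ctsz.

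**Figure D4:**
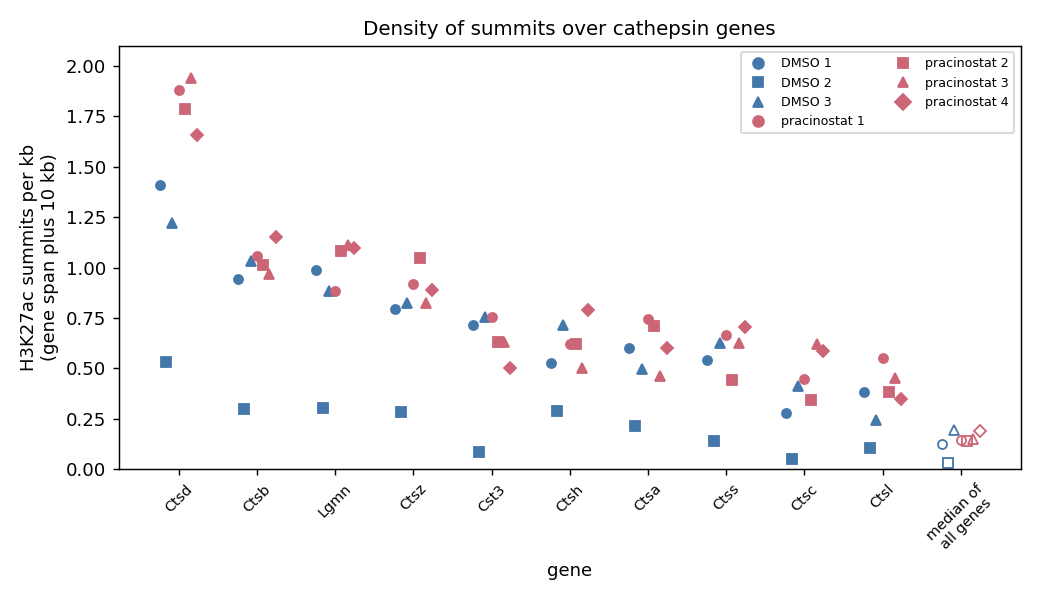
H3K27ac summits per kb (y axis) over each gene span plus 10 kb in each of 7 libraries, with the median of all genes at the right in open symbols. Ctsd stands highest, at 0.533 to 1.94, and DMSO replicate 2, the shortest list, is lowest for every gene.

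Single sites within the windows were read through consensus regions. The 10 genes held 105 of 48236 ranked regions, from 3 at Ctsa to 29 at Lgmn, and 40 had a summit in all 7 libraries (11 at Lgmn, 9 at Ctsd, 5 at Ctsb, 4 at Ctss, 3 at Ctsh, 2 each at Ctsc, Ctsz and Cst3, 1 each at Ctsa and Ctsl). None of the 105 passed, while 0.00207% of all regions were called higher and 0.00207% lower. At an unadjusted p under 0.05 there were 4 higher and 3 lower, or 3.81 and 2.86% of the 105, beside 2.6 and 2.54% of all regions. In 8 of the 105 (7.62%) every pracinostat library was above every DMSO library, and in 2 (1.90%) every one was below, beside 3.36 and 3.01% of all regions. Over all regions 50.8% were higher in mean with pracinostat. A region was defined by the highest summits of any library, so one defined through 1 treatment group was chosen for a high place in that group. Of the 105, 55 were defined through libraries of both groups, 29 through pracinostat and 21 through DMSO libraries only. The 55 held the 4 higher regions, 1 of the 3 lower, 6 of the 8 above and 0 of the 2 below. The matching shares over all regions defined through both groups are not given here. The counts for the 55 therefore have no background and are a description only. Regions of 1 gene share their surroundings and are not independent.

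The 4 higher regions at an unadjusted p under 0.05 were all at Lgmn. The one with the smallest p lies inside the gene, on chromosome 12 from 102426003 to 102426773, about 13.2 kb from the 5′ end; the gene table does not give exons. Every library had a summit there, between 13205 and 13251 bp from the 5′ end. In DMSO replicates 1 to 3 its percentile among regions was 73.5, 97.7 and 85.7, and in pracinostat replicates 1 to 4 it was 99.4, 99.9, 98.9 and 99.5. Put as the share of a library's summits that score as high or higher, the site was in the top 9.36, 2.51 and 3.40% with DMSO and the top 0.121, 0.0266, 0.237 and 0.0799% with pracinostat. The groups did not overlap on either scale. The difference of 1.39 ± 0.393 normal-score units did not pass (limma adjusted p = 0.659), and it was 1.09 to 1.77 when 1 library was left out. No IgG library had a summit in it. The IgG libraries held only 0 to 2 summits each over all 10 genes plus 10 kb, so that absence says nothing of the site.

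The other three higher regions at Lgmn were an upstream pair and one near the 3′ end, chosen after their values were seen. The upstream region from 102445349 to 102446076 had 51.8, 25.2 and 73.9 with DMSO and 97.7, 92.4, 94.1 and 91.6 with pracinostat (1.59 ± 0.452, adjusted p = 0.694). DMSO replicate 2 had no summit in it, so its 25.2 is the place shared by regions without a summit. This region was defined through 4 pracinostat libraries but only 1 DMSO library, replicate 3. The nearer upstream region, from 102441798 to 102443130, had 80.1, 77.6 and 27.4 against 83.0, 95.1, 92.3 and 91.6. Both were separated by treatment. The 3′ region, from 102394373 to 102396250, overlapped between groups, with 73.5, 77.6 and 47.9 against 87.8, 97.3, 76.7 and 97.8. The region over the 5′ end, from 102439270 to 102441440, holds the printed promoter and had means of 99.0 ± 1.18 with DMSO and 99.5 ± 0.544 with pracinostat, with overlap. In 5 of 7 libraries the highest Lgmn summit lay just outside the gene, at the promoter. With the span read without its flank the difference of Lgmn was 1.49 (adjusted p = 0.776). That reading drops the promoter summit, and in every pracinostat library the highest summit left is that of the inner region. It is therefore not a separate result.

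Of the 3 lower regions, 2 were at Ctsh and 1 in the 3′ flank of Lgmn, over the end of Rin3. Both at Ctsh were defined through DMSO libraries only, so their direction is given as a description and supports nothing. The one of smallest p was inside the gene, on chromosome 9 from 90063637 to 90064137. It had 27.8, 91.0 and 44.6 with DMSO and 9.06, 24.1, 10.7 and 7.65 with pracinostat (−1.38 ± 0.567, adjusted p = 0.893). It held a summit in 4 of 7 libraries and was defined by the summit of DMSO replicate 2 alone. Without DMSO replicate 2 the difference was −0.815.

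**Figure D5:**
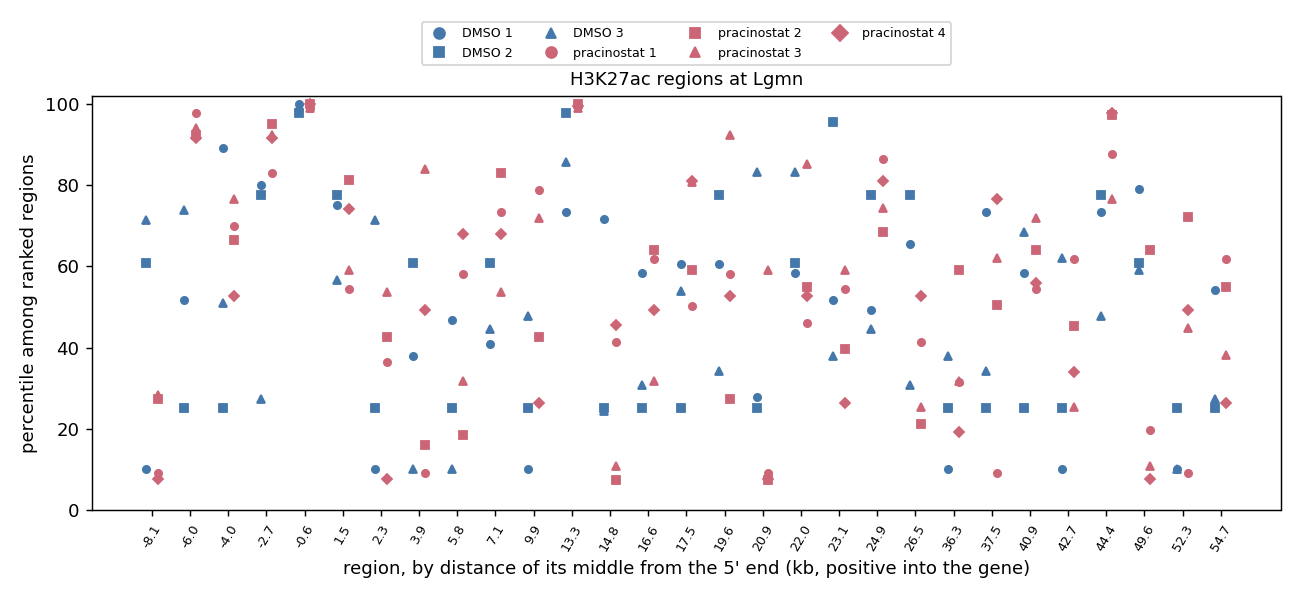
Percentile among ranked regions (y axis) of the 29 regions at Lgmn in each of 7 libraries, ordered by distance of the region from the 5′ end in kb. The 4 pracinostat points of the inner region lie between 98.9 and 99.9, and those of the region at −5984 bp between 91.6 and 97.7, above the 3 DMSO points in both. At −5984 bp the point of DMSO replicate 2 stands for no summit.

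Other genes of the pathway were read at gene ends. Among other cathepsins, 6 of 7 were ranked, with list means of 41.3 ± 9.47 for DMSO and 41.2 ± 8.46 for pracinostat, 2 higher and 4 lower in mean, and a median difference of −3.64 percentile points. Tpp1, a lysosomal tripeptidyl peptidase, had 60.6 ± 36.2 and 80.5 ± 11.6, and Ctso 35.3 ± 21.2 and 46.2 ± 19.6. The DMSO libraries of Tpp1 were far apart (63.9, 95.1 and 22.9), and the difference was 1.03 points without DMSO replicate 3, while that of Ctso was 2.79 without DMSO replicate 2. Ctsw, known from cytotoxic lymphocytes, had 35.6 ± 23.6 and 27.8 ± 7.59, and Ctsf 54.9 ± 36.6 and 38.5 ± 16.2. Both lower means rest on DMSO replicate 2, which stood at 62.6 for Ctsw and 97.2 for Ctsf: without it the differences were 5.71 and 4.65 points in the other direction. Of 14 other cystatin and related genes only 3 were ranked. These were Cstb, the intracellular inhibitor stefin B, at 88.8 ± 9.09 and 91.9 ± 4.44, Cst7, which encodes cystatin F of immune cells, at 33.1 ± 12.4 and 52.6 ± 12.5, and Cst13, at 11.9 ± 7.63 and 8.75 ± 6.21. Without DMSO replicate 2 the difference of Cstb was −1.69 points, that of Cst7 12.4 in place of 19.5, and that of Cst13 0.350. The list means were 44.6 ± 4.82 and 51.1 ± 3.67, with 2 higher and 1 lower and a median difference of 3.09.

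Genes that deliver or sustain lysosomal enzymes (23 of 24 ranked) had list means of 62.2 ± 2.03 and 64.3 ± 2.90, with 15 higher and 8 lower and a median difference of 5.30 points. Glb1, the beta-galactosidase that cathepsin A shields, had 51.3 ± 3.52 and 77.2 ± 7.16, with no overlap between groups (adjusted p = 0.809). Gnptab, which builds the mannose 6-phosphate tag of lysosomal enzymes, had 41.7 ± 21.3 and 54.3 ± 20.02, a difference of 12.5 points that was 1.18 without DMSO replicate 2. Rab7, a GTPase of late endosomes, had 87.2 ± 2.29 and 72.9 ± 5.69, and Psap, the precursor of saposins, 93.4 ± 1.81 and 77.0 ± 27.3. The groups did not overlap at Rab7. Over all genes 2.88% were separated upward, as Glb1 was, and 3.79% downward, as Rab7 was. Psap stood at 36.2 in pracinostat replicate 4, and without that library its difference was −2.88 points in place of −16.5. Substrates and users of cathepsins in antigen and nucleic acid sensing (18 of 20 ranked) had means of 52.1 ± 5.46 and 51.3 ± 3.79, with 12 higher and 6 lower and a median difference of 2.78. Il1b, an inflammatory cytokine gene, had 21.7 ± 4.21 and 32.9 ± 13.6, and Ifi30, a thiol reductase of the lysosome, 67.0 ± 15.5 and 78.0 ± 7.12. The difference of Il1b was 6.60 points without pracinostat replicate 3 in place of 11.2, and that of Ifi30 4.65 without DMSO replicate 1 in place of 11.1. The MHC class II genes H2-Aa and H2-DMb1 had 37.1 ± 9.88 and 21.3 ± 3.40, and 52.0 ± 7.93 and 33.4 ± 15.3. Both, named for the largest falls of the list, had every pracinostat library below every DMSO library, beside 3.79% of all genes. At H2-DMb1 the lowest DMSO value was 47.3 and the highest pracinostat value 46.6. In DMSO replicate 2 both of them, and Glb1, stood at 47.3, the place of summits at that library's lowest score. In these 4 lists 0 genes passed over all genes, and 0 had an unadjusted p under 0.05.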

How the data were processed

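The deposited files were 14 lists of peak summits, 1 per library (7 with H3K27ac antibody, 7 with IgG), with a score per summit that was read as the −log10 significance MACS2 writes to such lists. The files have no header, and the sources do not say if it derives from p or from q. Bowtie2, MACS2 2.2.9.1, DESeq2 and HOMER with mouse build mm10 are named in the submitters' processing notes, without roles. How calls were thresholded, what served as control and how many reads were used were not given in the sources used here. No pooling by the authors is stated, and each list belongs to 1 library. The value grows with depth and was used only to rank within a list.

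Genes were the 21887 protein-coding genes of the RefSeq table for GRCm38.p6, the assembly that mm10 names, and promoter sequences came from RefSeq for the same build, which held 8 of the 10 genes. Each gene took its highest value within 1 kb of either gene end, or over the gene span plus 10 kb. Ranking took the genes marked in 3 or more of the 7 H3K27ac libraries and was done within each library. Ranks became normal scores, and limma 3.58.1 (trended, robust variance, R 4.3.3) compared pracinostat with DMSO, with Benjamini-Hochberg adjustment over all ranked genes. Consensus regions (the 30000 highest summits of each library, ties drawn at random, extended by 250 bp and merged) were ranked and fitted in the same way. The fit was also run on simulated data, with an outcome not given here. Those data had no ties and no genes without a summit, unlike these lists, so the run does not show how the fit handles them. Replicate numbers are shared between the groups, and the main fit did not treat them as pairs.

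The members and the gene lists were chosen with earlier results of these data known. Named were all 10 members, the 2 genes of largest rise and the 2 of largest fall in mean percentile in each pathway list, the 3 genes most like the member of smallest p, the member region of smallest p in each direction and Itgam, Csf1r and Spi1. Other genes were chosen after their values were seen, and member regions with a summit in all 7 libraries, which the rule also covers, are given as counts per gene. Alternatives covered windows, filters, list length, score threshold, library weights, the replicate block and leaving out each library. The alternative with the 5′ end only, the alternatives for the 2 named regions and the list genes' means with each library left out were chosen after seeing the data.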

Additional observations from a re-analysis of the deposited data

Results flagged for a closer look

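Ctsc stood out in 1 pracinostat library. Over the gene span plus 10 kb its percentile in pracinostat replicate 4 was 63.6, while the other 3 pracinostat libraries had 91.9, 87.1 and 90.9. The gap to the nearest of them, as a share of the range of the 4, was beyond Dixon's critical value for 4 samples. Both windows of the 10 genes gave 20 such groups of 4 libraries, of which this was the one beyond it, and chance alone is expected to put about 1 in 20 there.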

How the results depend on the processing

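No member passed in any alternative at gene ends or over the span, where the lowest limma adjusted p was 0.660 (Ctsl, without DMSO replicate 3), nor did either named region (lowest 0.377). The count of called genes at gene ends, 0, was 2 with windows of 500 bp, 2 with any summit required, 1 with a summit in all 7 libraries, 1 with the 30000 highest summits, 1 with scores of at least 5, and 0 to 4 with 1 library left out. Over the span it was 1 without flank, 1 with the 30000 highest summits and 0 to 2 with 1 library left out. For regions, 2 became 3 with summits extended by 500 bp, 1 with the replicate block, 0 with list length as a covariate and 0 to 2 with 1 library left out. At gene ends the sign turned for Ctss with 500 bp windows (−0.149), Ctsz with 2.5 kb windows (0.103), Ctsl on the percentile scale (3.05) and with list length as a covariate (0.107), and Lgmn with that covariate (−0.0639). Leaving out 1 library gave −0.0242 to 0.563 for Ctsb, −0.199 to 0.151 for Ctsh, −0.870 to 0.0970 for Ctsl and −0.104 to 0.671 for Lgmn. Over the span it turned for Ctsl on the percentile scale (2.56) and with the covariate (0.107), and for Lgmn with the covariate (−0.0169). There, leaving out 1 library gave −0.0322 to 0.555 for Ctsb, −0.00460 to 0.249 for Ctsd, −0.0748 to 0.287 for Ctsh, −0.917 to 0.0617 for Ctsl, −0.119 to 0.125 for Ctsz and −0.0588 to 0.724 for Lgmn. The cause was not tested. Same-numbered libraries had correlations of deviations of −0.0544, 0.000524 and −0.0235. DMSO replicates 1, 2 and 3 correlated best with pracinostat replicates 2, 3 and 1 (0.0535, 0.0308 and 0.0961). These values show no pairing by number, which with 3 and 4 libraries they could not exclude. The replicate block left the sign of every member as it was, with 0 genes called at gene ends (Ctsa 0.470) and 0 over the span. With the 5′ end only, 0 of 10153 genes were called, and Ctsb and Ctsh could not be included. List length, and the tie at the lowest score in DMSO replicate 2, limit what ranks can show, and ranks cannot show a gain or loss shared by the whole genome.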

Other observations

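Of the 10 genes, 2 had a long stretch without any summit. At Lgmn no summit of any H3K27ac library lay between 26.9 and 33.8 kb from the 5′ end, a stretch of 6990 bp inside the most highly ranked member. At Ctsl a stretch of 8011 bp past the 3′ end, from 10.1 to 18.1 kb from the 5′ end, was empty in all 7 libraries. The longest empty stretch of the other 8 genes was 1364 bp (Ctsd) to 3756 bp (Ctss). No IgG library had a summit in the Lgmn or the Ctsl stretch. These libraries held only 0 to 2 summits each over all 10 genes plus 10 kb, so that absence says nothing of the stretches. Empty stretches at genes outside the 10 are not given here. Mappability was not tested.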
